A study of Homo sapiens with 42 samples.

Results

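Glycolysis and hypoxia response genes were followed as a set of 36 human genes, out of 58721 gene identifiers counted in every library. They were picked by name from a list and matched to the count tables by GENCODE symbol, and all 36 were found in each of the 4 tables. Of these, 23 encode glucose transporters, glycolytic enzymes, lactate enzymes and carriers, and kinases that set glycolytic flux, and 13 encode parts or targets of the hypoxia-inducible factor (HIF). The study sequenced polyadenylated RNA from 42 libraries to follow MS41, a small molecule made to degrade ENL, which is a chromatin reader that binds acylated histones and is encoded by MLLT1. MV4;11 is a human myeloid leukaemia line and SEMK2 a human B-lineage leukaemia line, and both carry a fusion of MLL with AF4. All libraries share that background of a fusion-driven line. MV4;11 cells labelled wild type were grown in culture with DMSO solvent, or with MS41, MS41N or PFI-6 at 100 nM, and collected at 6 h or at 24 h, with 3 libraries in each of these groups. PFI-6 is a chemical probe that occupies the histone-binding YEATS domain of ENL, and MS41N is known here by its code name only (spelled MS47N in the treatment protocol). SEMK2 cells, labelled wild type as well, received DMSO or MS41 at the same 100 nM, with 3 libraries each, and no label says whether 6 h or 24 h applied. A further experiment used CRISPR guides in MV4;11, with 2 libraries for a control guide and 2 for each of ENL guide 1 and guide 2, whose cells are labelled ENL knockout. The labels do not say whether these are pools or clones. The last 6 libraries are MV4;11 cells taken from mice, 3 after vehicle and 3 after MS41. The labels give no dose, time, organ, mouse strain or mouse age for them, and no oxygen level for any culture.

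Glycolysis turns glucose into pyruvate in a chain of enzyme steps, and cells with high glycolytic flux reduce much of the pyruvate to lactate and export it. HIF is a pair of proteins, an oxygen-sensitive alpha subunit (HIF1A or EPAS1) and a stable beta subunit (ARNT), and prolyl hydroxylases such as EGLN1 and EGLN3 mark the alpha subunit for destruction when oxygen is present. When oxygen is low, HIF accumulates and raises transcription of glucose transporters, most glycolytic enzymes, LDHA, PDK1 and genes of angiogenesis, mitophagy and acid handling, so transcript levels of those targets are commonly read as HIF activity, while HIF1A itself is controlled largely at the protein level. MYC is a second well-known activator of glycolytic genes in leukaemia cells.

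HIF binds the letters ACGTG within hypoxia response elements. The promoters below belong to PGK1, LDHA, ALDOC, ENO2, PFKFB3, P4HA1, BNIP3, EGLN1 and CA9. These members are named in the results and hold those letters close to a start site. The stretches come from RefSeq promoter entries on GRCh38.p14, run 5′ to 3′ on the gene's own strand, and carry ACGTG or its reverse complement CACGT in capitals (CACGTG, an E-box, holds both). For PGK1, phosphoglycerate kinase, the part of the promoter upstream of annotated exons is given, and for the others a window of 30 bases. The capitals shown for ALDOC, ENO2, EGLN1, P4HA1 and CA9 lie in bases that GENCODE release 29 annotates as exon.
PGK1 chrX:78103998-78104173, plus strand: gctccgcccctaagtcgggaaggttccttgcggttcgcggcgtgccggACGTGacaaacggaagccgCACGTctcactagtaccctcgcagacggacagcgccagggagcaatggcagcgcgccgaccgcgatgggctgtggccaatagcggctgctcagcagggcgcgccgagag
LDHA chr11:18394366-18394395, plus strand: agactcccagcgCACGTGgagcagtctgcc
ALDOC chr17:28577116-28577145, minus strand: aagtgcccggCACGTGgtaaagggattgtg
ENO2 chr12:6914450-6914479, plus strand: acccgcgctcgtACGTGcgcctccgccggc
PFKFB3 chr10:6202812-6202841, plus strand: caccctcctcccCACGTGgaagggggctgg
P4HA1 chr10:73096935-73096964, minus strand: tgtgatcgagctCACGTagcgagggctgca
BNIP3 chr10:131982040-131982069, minus strand: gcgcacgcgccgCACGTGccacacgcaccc
EGLN1 chr1:231422288-231422317, minus strand: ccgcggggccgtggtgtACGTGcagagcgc
CA9 chr9:35673898-35673927, plus strand: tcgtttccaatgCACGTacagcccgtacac

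RefSeq entries were matched for 33 of the 36 members (SLC2A3, VEGFA and BNIP3L had none in the table), with 61 start sites among them. The motif ACGTG, searched on both strands in the 250 bases before a start, lay in 22 of these 61 windows, or 36.1%, and in 18.5% of all 35116 promoter windows of that length. A second hypoxia response core, GCGTG, lay in 34.4% of the member windows and in 32.2% of all windows. At least 1 window with ACGTG was present for 19 members and none for 14. A match is only a run of letters, and no factor binding was measured here.

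Differences within a table were tested with the quasi-likelihood test of edgeR, with p-values adjusted over all genes by the Benjamini-Hochberg method and a gene called below 0.05. Each difference is a log2 fold change, with its standard error as SE, and levels are CPM, counts scaled to the effective library size after TMM. The MV4;11 compound libraries held 102345811 to 156479711 counts each, those of SEMK2 155911682 to 230637548, those of the guides 77216662 to 87813453 and those from mice 99485164 to 126740852. Whether replicates came from separate cultures or mice is not in the labels, and p-values then measure only the spread among these libraries, which may be technical. In bulk RNA, fewer cells of a type and less RNA per cell cannot be told apart. Each line carried markers of its label. All 7 myeloid markers were above 1 CPM in every MV4;11 group, and all 6 B-lineage markers in SEMK2. In SEMK2 with DMSO, 5 of the 7 myeloid markers also reached 1 CPM (136 to 176 CPM summed). Its stroma and endothelium markers summed to 78.5 to 86.5 CPM, but only 2 of 9 reached a mean of 1 CPM and 3 were at 0. In cells from mice these markers summed to at most 1.03 CPM, with 5 of 9 at 0 in the vehicle libraries. MV4;11 with DMSO at 24 h held 0.162 to 0.357 CPM of them. These are counts of human genes, so a low sum cannot exclude mouse host RNA. T-cell and NK-cell markers summed to 18.5 to 20.4 CPM in vehicle cells. They summed to 34.7 to 37.5 CPM with the control guide and 6.06 to 7.09 with DMSO at 24 h. In each of these groups only 1 of the 6 markers reached a mean of 1 CPM, so each sum rests mainly on 1 gene. MLLT1 fell with both guides together (log2 fold change -0.63, SE 0.062, adjusted p = 6.4e-05, edgeR), to 181.1 and 190.1 CPM with guide 1 and to 123.2 and 127.5 CPM with guide 2, from 223.0 and 249.8 CPM with the control guide. In SEMK2, DMSO replicate 3 stood apart from its group: its chi-square per degree of freedom against the other replicates was 50.7 and 56.4, while those 2 differed by 11.1.

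**Figure D1:**
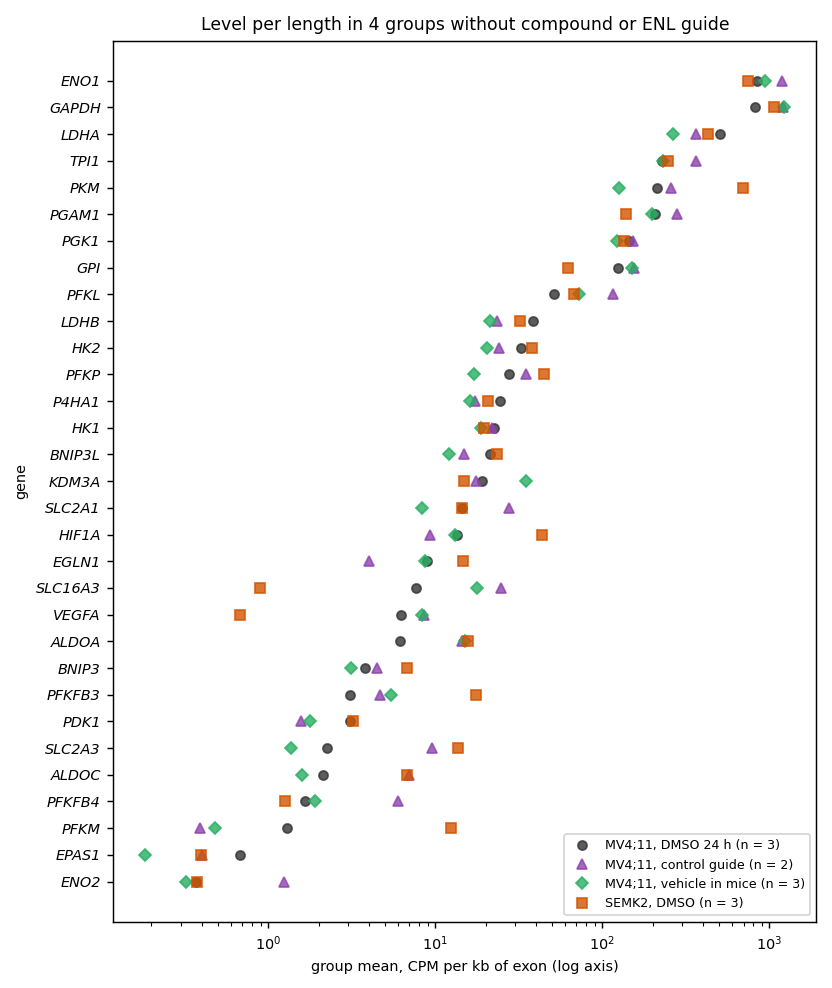
Level of the 31 members at or above 1 CPM in MV4;11, as mean CPM per kilobase of exon on a log axis, for MV4;11 with DMSO at 24 h, MV4;11 with the control guide, SEMK2 with DMSO and MV4;11 from vehicle mice. ENO1 and GAPDH lie at the top in all 4 groups (844 and 825 in MV4;11 with DMSO at 24 h), where EPAS1 and ENO2 are lowest in that DMSO group (0.682 and 0.369).

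In MV4;11 cells with DMSO, most enzymes of the lower glycolytic chain were among the most abundant members. Per kilobase of exon, DMSO cultures at 24 h held ENO1 (enolase) at 844 CPM, GAPDH (glyceraldehyde phosphate dehydrogenase) at 825, LDHA (the lactate dehydrogenase subunit that favours lactate formation) at 507, TPI1 (triose phosphate isomerase) at 229, PKM (pyruvate kinase) at 212, PGAM1 (phosphoglycerate mutase) at 207 and PGK1 at 145. The hexokinases, the phosphofructokinase subunits and the glucose transporter SLC2A1 lay lower on the same scale. HK2 (hexokinase) stood at 32.5, HK1 at 22.5, PFKL (the phosphofructokinase subunit typical of liver) at 51.7, PFKP (its platelet-type counterpart) at 27.7 and SLC2A1 (the main basal glucose transporter) at 14.5 CPM per kilobase. HIF1A was at 13.4 and EPAS1 at 0.682, so the alpha subunit pair was mostly HIF1A at the RNA level. VEGFA, the angiogenic growth factor, was at 6.24 and SLC2A3, a high-affinity glucose transporter, at 2.24.

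Several of the listed HIF-related members were almost silent or low. CA9, a cell-surface carbonic anhydrase that acidifies the surroundings, had 2 counts, both in 1 of the 42 libraries (MS41 at 24 h, replicate 1, 0.0153 CPM). MXRA5, a matrix remodelling gene, had 2 counts in all. A count of 0 allows at most 0.0389 CPM in the shallowest library, taking 3 counts as the floor and covering counting error only. EGLN3, a prolyl hydroxylase that HIF induces, had 607 counts, nearly all in SEMK2, where its level ran from 0.468 to 0.697 CPM. ADM, the vasodilator peptide adrenomedullin, had 618 counts. It reached 0.387, 0.528 and 0.586 CPM in cells from vehicle mice and 0.879, 0.713 and 0.647 CPM in cells from MS41 mice. These 2 groups did not overlap, as for 30% of all genes, and ADM was not called. No MV4;11 culture library exceeded 0.138 CPM. ANKRD37, an ankyrin repeat gene induced by HIF, ran from 0.0828 CPM in a MV4;11 library with MS41 to 1.59 CPM in a SEMK2 library with DMSO. After the filter on low counts, 33 of 36 members could be tested in the MV4;11 compound table, 33 in SEMK2, 32 in the guide table and 33 in the mouse table.

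In MV4;11 culture, MS41 changed most of the set within a day, in both directions. At 24 h, 11 of the 33 members tested rose and 18 fell, against 44.3% of all 22711 genes tested (21.4% higher and 22.9% lower). At 6 h, 5 rose and 14 fell, against 26% of all genes (12.2% higher and 13.8% lower). All 29 members called at 24 h had groups that did not overlap, as 50.2% of all genes did, and at 6 h PFKP alone among the 19 called had overlapping groups, where 37.4% of all genes had groups apart. The median log2 fold change of the members tested was -0.21 at 24 h and -0.06 at 6 h, and that of all genes 0.02 at both times. Most glycolytic enzymes, LDHA and VEGFA were lower, and SLC2A3, EPAS1, HIF1A and BNIP3L were higher. Of the 29 calls at 24 h, 28 held under each of 11 alternative settings, and of the 19 at 6 h, 15 did. Myeloid markers moved at 24 h as well: the 7 markers summed to 1750 to 1790 CPM with DMSO and 2990 to 3180 with MS41, and mitochondrial RNA made up 5.2% to 5.41% and 5.86% to 7.04% of counts. Their part in the member changes was not tested.

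**Figure D2:**
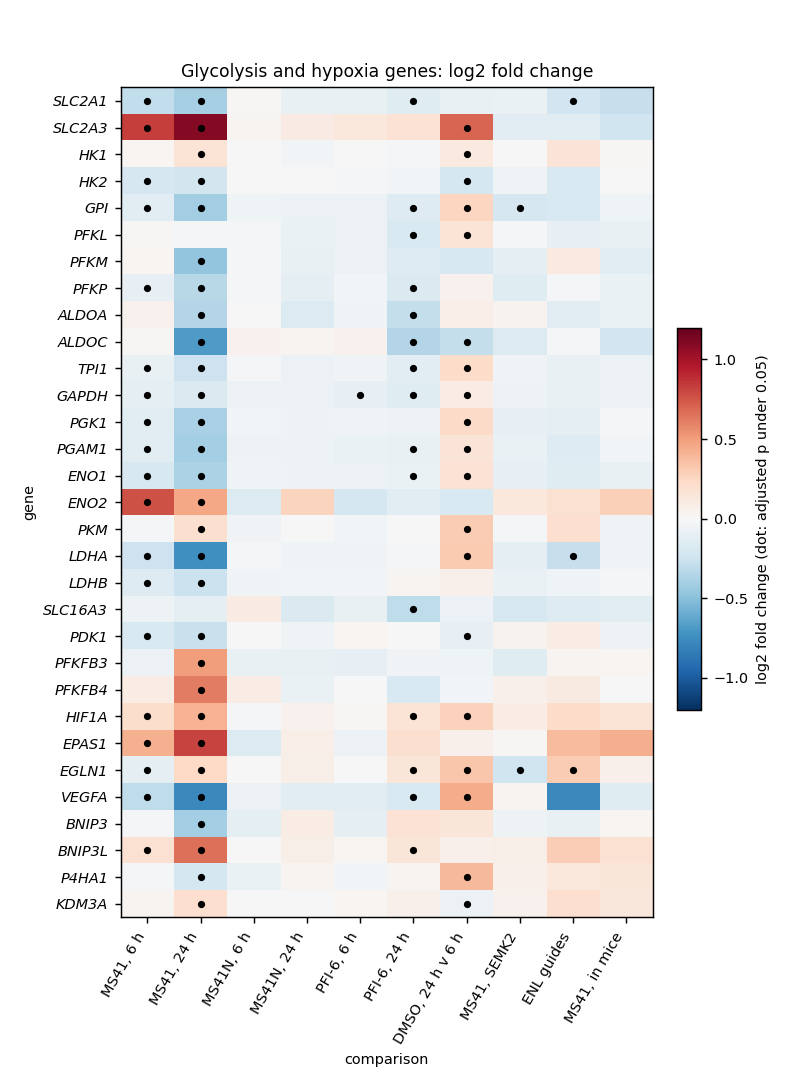
Log2 fold changes of 31 members (vertical axis, by role) in 10 comparisons (horizontal axis), coloured from lower (blue) to higher (red), with a dot where the adjusted p was under 0.05. The MS41 columns of MV4;11 culture carry most calls (19 at 6 h and 29 at 24 h), MS41N carries none, and the columns for SEMK2, guides and mice carry 2, 3 and 0.

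RNA of the 2 glucose transporters in the set changed in opposite directions. SLC2A1 stood at 56.0, 57.6 and 59.8 CPM with DMSO at 24 h and at 42.3, 46.5 and 42.4 CPM with MS41. Every MS41 library was below every DMSO library, and the log2 fold change was -0.40 (SE 0.040, adjusted p = 5.8e-12, edgeR). It had already fallen at 6 h, from 63.3, 60.6 and 60.03 to 51.7, 49.9 and 48.0 CPM (log2 fold change -0.30, SE 0.039, adjusted p = 4.6e-08, edgeR). SLC2A3 rose from 9.07, 8.50 and 8.74 CPM with DMSO to 19.3, 19.2 and 17.8 CPM with MS41 at 24 h, and no library of either group overlapped. Its log2 fold change of 1.10 (SE 0.065, adjusted p = 5.3e-19, edgeR) was the largest among the members called. At 6 h it had risen from 5.83, 5.24 and 5.16 to 10.2, 9.43 and 9.36 CPM (log2 fold change 0.83, SE 0.069, adjusted p = 1.7e-13, edgeR). SLC2A14, a close copy of SLC2A3, drew 8.88% as many counts as SLC2A3 in this table and 32.7% in that from mice, so reads may be split between them.

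The hexokinases, which trap glucose in the cell by phosphorylating it, also parted. HK2, the inducible form, fell at both times (log2 fold change -0.20 at 6 h and -0.22 at 24 h), and HK1, the housekeeping form, rose at 24 h by 0.17 (adjusted p = 1.4e-06, edgeR), from between 104.6 and 105.9 CPM with DMSO to between 115.8 and 120.4 CPM with MS41. In the upper chain 6 of 7 members fell at 24 h and none rose. GPI, the isomerase that follows hexokinase, went from 547.6, 554.7 and 555.7 CPM to 414.4, 425.1 and 402.3 CPM (log2 fold change -0.42, SE 0.028, adjusted p = 1.8e-17, edgeR). All 3 MS41 libraries lay far below the DMSO libraries. ALDOC, the brain-type aldolase, went from 4.75, 4.21 and 4.001 to 2.83, 3.01 and 2.21 CPM (log2 fold change -0.68, SE 0.108, adjusted p = 7.5e-07, edgeR), also without overlap. Smaller falls were called for PFKM, the muscle-type phosphofructokinase subunit (-0.47), ALDOA, the aldolase of most tissues (-0.35), PFKP (-0.33) and TPI1 (-0.24). PFKL was not called, at 151, 151 and 157 CPM with DMSO and 149, 152 and 150 with MS41, and its 95% interval ran from -0.09 to 0.04.

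In the lower chain 4 of 6 members fell and 2 rose at 24 h. PGK1, whose promoter holds 2 of the motifs shown above, went from 730.0, 721.7 and 713.3 CPM to 546.4, 569.6 and 537.8 CPM (log2 fold change -0.39, SE 0.023, adjusted p = 7.8e-19, edgeR). ENO1 went from between 2022 and 2036 CPM to between 1500 and 1620 CPM (-0.38), PGAM1 from between 375 and 383 to between 276 and 299 (-0.41), and GAPDH from between 1808 and 1858 to between 1589 and 1706 (-0.17). None of these ranges overlapped. PKM rose from between 699 and 704 CPM to between 783 and 822 CPM (0.20, adjusted p = 1.5e-09, edgeR), although it catalyses the last step of the same chain. ENO2, the neuronal-type enolase, was near 1 CPM: 1.13, 1.14 and 1.24 with DMSO and 1.5, 1.98 and 1.36 with MS41 at 24 h (log2 fold change 0.47, SE 0.183, adjusted p = 0.034, edgeR). Its rise was larger at 6 h, from 1.43, 1.15 and 1.40 to 1.91, 2.27 and 2.55 CPM (0.76, SE 0.178, adjusted p = 0.00083, edgeR).

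At the lactate step LDHA fell strongly. LDHA stood at 1514, 1524 and 1482 CPM with DMSO at 24 h and at 896.8, 935.7 and 888.6 CPM with MS41. Every MS41 library lay far below the DMSO libraries, a log2 fold change of -0.73 (SE 0.022, adjusted p = 8.9e-30, edgeR). At 6 h the levels were 1210, 1212 and 1204 against 1020, 1017 and 1007 CPM (-0.25, SE 0.022, adjusted p = 8.1e-13, edgeR). LDHB, the subunit that favours pyruvate formation, fell less (-0.16 at 6 h and -0.26 at 24 h). SLC16A3, the lactate exporter of glycolytic cells, was not called at 24 h, at 39.5, 37.1 and 41.7 against 34.6, 38.5 and 37.0 CPM (-0.10, adjusted p = 0.067, edgeR).

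The kinases that direct flux changed in both directions. PFKFB3 and PFKFB4 make the regulatory fructose bisphosphate, an activator of phosphofructokinase. PFKFB3 went from 15.5, 17.9 and 17.1 CPM with DMSO to 23.7, 25.2 and 22.7 with MS41 at 24 h (log2 fold change 0.50, SE 0.052, adjusted p = 2e-11, edgeR), and PFKFB4 from 5.85, 5.86 and 6.01 to 9.93, 8.39 and 8.79 (0.61, SE 0.083, adjusted p = 2.2e-08, edgeR). Both groups were apart for both genes. At 6 h neither was called, with values of -0.07 and 0.09. PDK1, which blocks pyruvate entry into mitochondria, fell from 43.7, 44.1 and 43.3 to 36.3, 37.0 and 35.5 CPM at 24 h (-0.27, SE 0.038, adjusted p = 6.3e-08, edgeR) and by 0.18 on the log2 scale at 6 h.

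**Figure D3:**
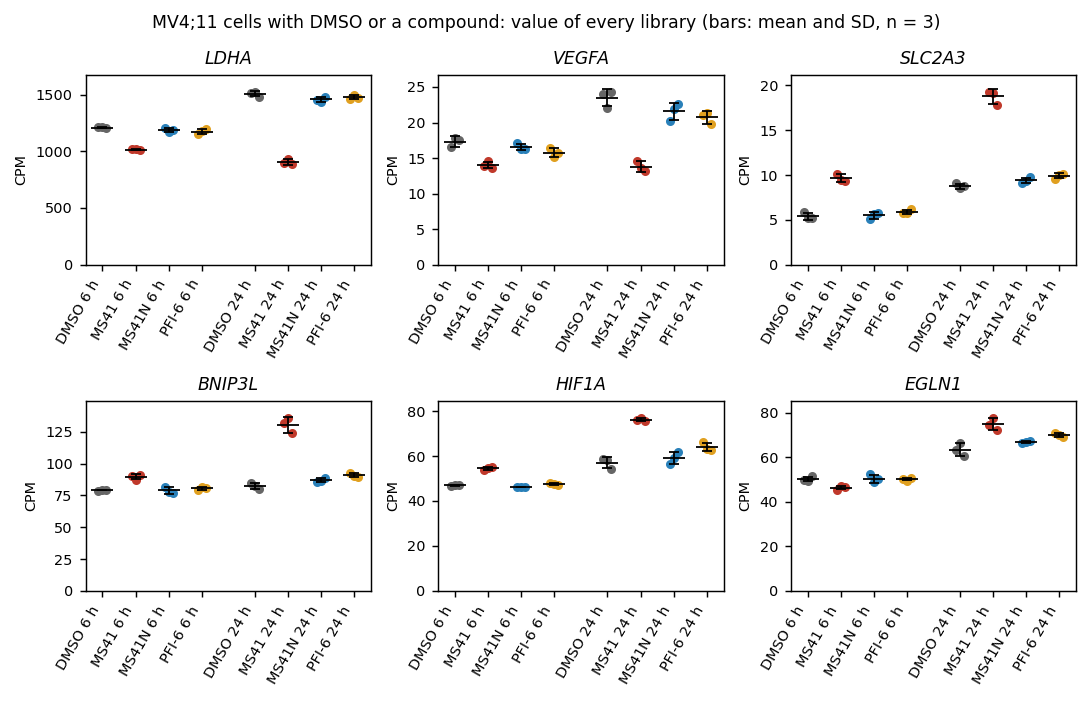
CPM of 6 members in every MV4;11 compound library, by compound and time, each point being 1 library and each bar a mean with its SD (n = 3), for LDHA, VEGFA, SLC2A3, BNIP3L, HIF1A and EGLN1. LDHA and VEGFA are lower and SLC2A3 and BNIP3L higher with MS41 than with DMSO at both times, while MS41N has no call for any of the 6, and PFI-6 at 24 h has smaller ones for VEGFA, HIF1A, EGLN1 and BNIP3L.

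RNA of both HIF alpha subunits rose with MS41. HIF1A stood at 58.8, 58.1 and 54.3 CPM with DMSO at 24 h and at 76.2, 76.8 and 75.5 with MS41 (log2 fold change 0.42, SE 0.033, adjusted p = 1e-14, edgeR). At 6 h it had moved from 46.8, 47.3 and 47.0 to 53.6, 54.5 and 55.3 CPM (0.21, SE 0.034, adjusted p = 2.7e-06, edgeR), and the groups were apart at both times. EPAS1, the alpha subunit known from endothelium and kidney, went from 3.26, 3.38 and 3.93 to 6.74, 5.99 and 5.80 CPM at 24 h (0.81, SE 0.120, adjusted p = 2e-07, edgeR) and from 3.18, 3.42 and 3.56 to 4.96, 4.33 and 4.33 CPM at 6 h (0.42, SE 0.122, adjusted p = 0.0067, edgeR), a call that was lost without MS41 replicate 1 (0.35, adjusted p = 0.051, edgeR). EGLN1, the main prolyl hydroxylase, changed sign with time. It fell from 50, 49.3 and 51.4 to 45.5, 47.1 and 46.7 CPM at 6 h (-0.11, SE 0.035, adjusted p = 0.01, edgeR) and rose from 63.2, 66.3 and 60.6 to 74.5, 77.6 and 72.2 CPM at 24 h (0.24, SE 0.034, adjusted p = 6.6e-08, edgeR). The EGLN1 call at 6 h was lost without DMSO replicate 3 (adjusted p = 0.064, edgeR).

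The HIF targets outside glycolysis did not move as a block. Of 9 listed, 7 were tested, and at 24 h 2 rose, 3 fell and 2 were not called. VEGFA fell from 24.1, 22.1 and 24.3 to 14.6, 13.6 and 13.1 CPM (log2 fold change -0.77, SE 0.054, adjusted p = 1.9e-16, edgeR), the deepest fall of the set, after 16.5, 17.9 and 17.6 against 13.9, 14.6 and 13.7 CPM at 6 h (-0.30, SE 0.055, adjusted p = 2.2e-05, edgeR). BNIP3L, a mitophagy receptor, rose from 85.0, 82.8 and 80.0 to 131.8, 135.7 and 123.8 CPM (0.66, SE 0.031, adjusted p = 1.1e-22, edgeR), after 78.9, 79.2 and 79.4 against 90.1, 87.4 and 91.2 CPM at 6 h (0.18, SE 0.031, adjusted p = 1.2e-05, edgeR). The 2 genes moved apart at both times. BNIP3, a related mitophagy receptor, went the other way from BNIP3L at 24 h, from 9.71, 12.2 and 10.6 to 8.55, 7.89 and 8.02 CPM (-0.41, SE 0.078, adjusted p = 2e-05, edgeR), but 39 of its pseudogenes drew 48.4% as many counts as BNIP3 itself. P4HA1, a collagen prolyl hydroxylase, fell from 74.1, 73.5 and 67.8 to 62.5, 63.5 and 60.01 CPM (-0.21), and KDM3A, a histone demethylase, rose from 96.7, 97.6 and 96.2 to 109.7, 113.8 and 109.6 CPM (0.20). BNIP3, P4HA1 and KDM3A were not called at 6 h, at -0.03, -0.02 and 0.03. By promoter letters, 18 of the members with ACGTG near a start were tested, of which 3 rose and 13 fell at 24 h. Of those without it 12 were tested, of which 6 rose and 4 fell. Over all genes tested, 21.4% rose and 22.9% fell. GCGTG was not considered in this split. It is a description with no test, and promoter letters and role in the pathway were not separated.

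Time in culture moved the set without any compound. Between DMSO at 6 h and DMSO at 24 h, 15 of 33 members were higher and 4 lower at the later time, against 30.2% of all genes (16.7% higher and 13.5% lower; groups apart in 41.2%). SLC2A3 (0.70), VEGFA (0.44), P4HA1 (0.39), EGLN1 (0.33), LDHA (0.32), PKM (0.30), HIF1A (0.28) and GPI (0.26) were among those higher, and ALDOC (-0.28), HK2 (-0.21), PDK1 (-0.10) and KDM3A (-0.07) were those lower. LDHA, for instance, was at 1204 to 1212 CPM at 6 h and at 1482 to 1524 CPM at 24 h. The KDM3A call was lost when any of the 6 libraries was left out, as was that of PDK1. Myeloid markers rose over the same interval, from a sum of 847 to 864 CPM to 1750 to 1790 CPM, and their part in these changes was not tested.

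The MS41 effect itself grew or turned between the times for most members. The difference of the 24 h effect and the 6 h effect was called for 22 of 33 members, 9 higher and 13 lower, against 26.4% of all genes (11.9% higher and 14.5% lower). It was positive for PFKFB3 (0.58, SE 0.074), PFKFB4 (0.52, SE 0.118), BNIP3L (0.48, SE 0.044) and EGLN1 (0.35, SE 0.048). It was negative for ALDOC (-0.69, SE 0.149), PFKM (-0.49, SE 0.127), LDHA (-0.48, SE 0.031) and VEGFA (-0.47, SE 0.077). Adjusted p ranged from 5.9e-17 for LDHA to 0.0022 for PFKM (edgeR). For SLC2A1, HK2, PDK1, LDHB and GAPDH, called lower at both times, the differences ran from -0.10 to -0.01 and were not called, although that of SLC2A1 was without MS41 replicate 2 of 24 h (-0.15, adjusted p = 0.044, edgeR). This difference uses the DMSO libraries of both times, so it is not independent of the change in DMSO.

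MS41N did not move any member past the threshold at 6 h or at 24 h. For comparison, 0.321% of all genes were called at 6 h (0.0264% higher and 0.295% lower) and 0.0352% at 24 h (0.0176% higher and 0.0176% lower), DESeq2 called 0 members as well, and an unadjusted p below 0.05 was reached by 5 members of 33 at 6 h and 15 at 24 h, where 8.08% and 9.5% of all genes reached it. Of the 31 members above 1 CPM, 25 had a 95% interval wholly within 0.2 of zero on the log2 scale at 6 h and 21 at 24 h, and 30 lay within 0.5 at both times. ENO2 was the exception, with intervals from -0.54 to 0.20 and from -0.11 to 0.64. LDHA was at 1454, 1436 and 1482 CPM with MS41N at 24 h, SLC2A3 at 9.15, 9.35 and 9.74 and VEGFA at 20.2, 22.0 and 22.6, close to the DMSO libraries given above. MS41, MS41N and PFI-6 share the DMSO libraries, so their values are set side by side only.

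PFI-6 gave a smaller set of calls, late and mostly downward. At 6 h GAPDH alone was called, from between 1693 and 1774 CPM to between 1597 and 1630 CPM (log2 fold change -0.10, adjusted p = 0.04, edgeR), against 2.05% of all genes (1.39% lower), and that call was lost without any of 5 of the 6 libraries. At 24 h, 3 of 33 members rose and 12 fell, against 12.4% of all genes (5.57% higher and 6.78% lower). SLC16A3 went from 39.5, 37.1 and 41.7 to 31.8, 30.6 and 33.5 CPM (-0.30, SE 0.047, adjusted p = 3.4e-05, edgeR), ALDOA from 14.9, 14.1 and 15.4 to 12.2, 12.01 and 12.3 (-0.29, SE 0.065, adjusted p = 0.0022, edgeR) and ALDOC from 4.75, 4.21 and 4.001 to 3.29, 3.11 and 3.72 (-0.36, SE 0.107, adjusted p = 0.021, edgeR). The groups did not overlap for any of the 3, as for 27.9% of all genes. PFKL (-0.18), VEGFA (-0.18), PFKP (-0.17), GPI (-0.16), SLC2A1 (-0.15), GAPDH (-0.14), TPI1 (-0.13), PGAM1 (-0.09) and ENO1 (-0.08) were lower too, and HIF1A (0.17), EGLN1 (0.15) and BNIP3L (0.14) were higher. LDHA was at 1465, 1496 and 1472 CPM and not called (-0.03, interval -0.07 to 0.02). With a smooth trend on GC content removed, 1 member rose and 5 fell, against 2.98% of all genes at that setting, and PFKL turned to 0.01 (adjusted p = 0.86, edgeR). The calls of ALDOC, BNIP3L, HIF1A, PFKP, SLC2A1 and VEGFA were lost with that trend removed, and only 3 calls held under all 11 alternatives. VEGFA was also lost without DMSO replicate 1 or 3 or PFI-6 replicate 3, ALDOC without DMSO replicate 1 or PFI-6 replicate 1 or 2, and SLC2A1 and EGLN1 without DMSO replicate 3.

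Set directly against the other compounds at matched dose and time, MS41 differed in many members. Against MS41N, 5 members were higher and 12 lower at 6 h (21.8% of all genes called, 10.1% higher and 11.7% lower), and 10 higher and 18 lower at 24 h (42.4%, 20.5% higher and 21.9% lower, with groups apart in 48.5%). With the GC trend removed the 6 h split was 7 higher and 10 lower. Against PFI-6, 6 were higher and 9 lower at 6 h (19.5%, 9.35% higher and 10.1% lower), and 13 higher and 16 lower at 24 h (42.3%, 20.7% higher and 21.6% lower). At 24 h SLC2A3 differed by 1.00 (SE 0.065) from MS41N and by 0.92 (SE 0.065) from PFI-6, LDHA by -0.68 and -0.70 (SE 0.022 each), VEGFA by -0.64 and -0.59, EPAS1 by 0.73 and 0.61, and PFKFB4 by 0.70 and 0.80. For SLC2A3 and LDHA the intervals of these differences stayed clear of 0 by a wide margin (0.79 at the lowest for SLC2A3, -0.64 at the highest for LDHA). ALDOC differed by -0.71 from MS41N and by -0.33 (SE 0.11, adjusted p = 0.014, edgeR) from PFI-6, with PFI-6 libraries lying between DMSO and MS41. At 6 h ENO2 (0.93 and 0.97), SLC2A3 (0.80 and 0.71), EPAS1 (0.59 and 0.49) and SLC2A1 (-0.31 and -0.21) led, with the EPAS1 difference from PFI-6 lost without PFI-6 replicate 2 (0.36, adjusted p = 0.053, edgeR). HIF1A differed by 0.23 from MS41N and by 0.20 from PFI-6, and PDK1 by -0.19 and -0.20. These comparisons share the MS41 libraries.

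Genes of the pathway outside the set were also called in both directions with MS41 at 24 h. The shares of all genes called, to be read beside the counts of these lists, were 44.3% for MS41 at 24 h, 26% at 6 h and 12.4% for PFI-6 at 24 h. Of 14 HIF regulators tested, 6 rose and 5 fell (median 0.10): ARNT, the beta subunit, rose by 0.62 (SE 0.028) and CREBBP, a HIF coactivator, by 0.44 (SE 0.049), while SIAH2, a ligase that destroys hydroxylases, had -0.46 (SE 0.047). Of 30 further HIF targets, 11 rose and 8 fell (median 0.09). NDRG1, a stress-responsive gene, rose from 32.6 to 74.9 CPM in the mean (log2 fold change 1.20, SE 0.040, adjusted p = 4.3e-28, edgeR), whereas DDIT4 was at 0.453 and 0.796 CPM and AK4 (-0.76) at 1.05 and 0.618 CPM with DMSO and MS41. At 6 h the regulators gave 3 higher and 5 lower, led by CITED2, a HIF antagonist (-0.43, SE 0.029), with CREBBP at 0.25, and the targets 4 higher and 3 lower, led by PPFIA4 (0.45), JMJD6 (-0.34) and MXI1 (-0.18).

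Around pyruvate, MS41 at 24 h left 12 of 13 genes called, 5 higher and 7 lower (median -0.16). PC, pyruvate carboxylase, fell from 3.88 to 1.67 CPM in the mean (log2 fold change -1.21, SE 0.101), PDP1, the phosphatase that activates pyruvate dehydrogenase, rose from 60.4 to 116.1 CPM (0.94, SE 0.034), and PDK3, one of the kinases that oppose it, rose by 0.63 (SE 0.077). At 6 h, 3 were higher and 2 lower, with PDP1 at 0.50, PDP2 at -0.50 and PDK3 at 0.38. Among other glycolytic isoenzymes 3 of 14 rose and 4 fell (median 0.16), with SLC2A4 at -0.89, PFKFB2 at 0.79 and SLC16A1, a lactate carrier regulated by MYC, at -0.63. The pentose phosphate list gave 2 higher and 3 lower of 8 at 24 h (TKTL1 0.95, RPIA -0.47) and 0 higher and 5 lower at 6 h. In the glucose-sensing list 3 of 5 rose and 1 fell: TXNIP, a thioredoxin-binding protein induced by glucose through MLXIP and known to restrain glucose uptake, went from 128.9 to 277.2 CPM (1.11, SE 0.037, adjusted p = 5.7e-24, edgeR), with ARRDC4 at 0.48 and MLXIP at 0.21. With PFI-6 at 24 h, 4 of 14 regulators, 6 of 30 further targets and 4 of 8 pentose phosphate genes were called, with TXNIP at 0.13, GYS1 at -0.20, PLOD1 at -0.18 and KDM4B at -0.14 the leading targets. With MS41N at 6 h CITED2 alone was called in these 6 lists (-0.15).

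In SEMK2 few members were called with MS41. Of 33 tested, 0 rose and 2 fell, against 1.36% of all 21433 genes (0.84% higher and 0.518% lower). With the replicate number as a block 3 members fell, against 3.09% of all genes. EGLN1 went from 105.8, 101.8 and 106.2 CPM to 89.8, 87.5 and 89.0 (log2 fold change -0.24, SE 0.038, adjusted p = 0.0064, edgeR), and GPI from 284.0, 291.1 and 262.9 to 242.9, 245.4 and 239.9 (-0.20, SE 0.041, adjusted p = 0.027, edgeR). Neither pair of groups overlapped, as for 18.2% of all genes. Yet the EGLN1 call was lost when any MS41 library was left out, and that of GPI when any library other than DMSO replicate 3 was. SLC2A3 stood at 53.5, 51.6 and 54.7 CPM with DMSO and 47.8, 48.6 and 50.5 with MS41 (-0.12, interval -0.22 to -0.02, adjusted p = 0.26, edgeR). LDHA was at -0.12 (adjusted p = 0.11, edgeR), HIF1A at 0.09 and BNIP3L at 0.07, and VEGFA, at 2.36 to 2.91 CPM over both groups, at 0.03. Without DMSO replicate 3, the library that stood apart, 2 members rose and 12 fell, against 13.5% of all genes. HIF1A (0.12) and BNIP3L (0.11) then rose, and ALDOC (-0.27), GPI (-0.24), EGLN1 (-0.22), PFKP (-0.20), PFKFB3 (-0.15), SLC2A1 (-0.14), PGAM1 (-0.13), PFKM (-0.12), ENO1 (-0.12), PGK1 (-0.12), GAPDH (-0.11) and LDHA (-0.11) fell. With all libraries kept, BHLHE41 (0.51) and ZNF395 (0.26) were higher of 30 further HIF targets, where 0.84% of all genes were.

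The ENL guides gave 1 member higher and 2 lower of 32, against 10.3% of all 17984 genes (5.32% higher and 4.98% lower). LDHA was at 1001 and 1155 CPM with the control guide, 808.9 and 876.0 with guide 1 and 914.8 and 967.9 with guide 2, and the mean of both guides was lower by a log2 fold change of -0.28 (SE 0.076, adjusted p = 0.038, edgeR). SLC2A1 was at 114.0 and 106.2, then 95.8 and 87.1, then 100.0 and 94.0 CPM (-0.23, SE 0.063, adjusted p = 0.04, edgeR). EGLN1 was at 28.6 and 28.0, then 32.1 and 36.4, then 32.1 and 39.2 CPM (0.30, SE 0.089, adjusted p = 0.049, edgeR). For all 3 genes every ENL guide library lay on the same side of both control libraries, as for 36.7% of all genes. Each guide alone, against the same control libraries, called LDHA (-0.36, adjusted p = 0.029, edgeR) and SLC2A1 (-0.27, adjusted p = 0.045, edgeR) with guide 1 (7.48% of all genes), and 0 members with guide 2 (4.94%), where 7 had an unadjusted p below 0.05 and DESeq2 called 3.

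Replicates of the guide groups differed widely for some members, named here after their values were seen. In the control guide libraries SLC2A3 was at 50.9 and 24.0 CPM in them, VEGFA at 39.8 and 24.3, ALDOC at 17.5 and 11.0, ENO2 at 5.13 and 2.74 and PFKFB4 at 26.5 and 16.2, in each case higher in replicate 1. HIF1A (41.3 and 37.6), EGLN1 and KDM3A (91.3 and 88.0) differed less, and LDHA and PGK1 (728.3 and 799.5) were lower in replicate 1. In the guide 2 libraries ALDOC was at 15.4 and 28.8 CPM, ENO2 at 3.65 and 7.72 and VEGFA at 16.9 and 27.6. Intervals of the fold changes were wide for such genes, for instance -1.65 to 0.10 for VEGFA (-0.77, adjusted p = 0.24, edgeR) and -1.18 to 0.93 for SLC2A3 (-0.13). Without control guide replicate 1, 4 members rose and 4 fell, against 13.9% of all genes: SLC2A3 (0.51), BNIP3L (0.46), PDK1 (0.31) and HIF1A (0.28) were higher, and LDHA (-0.38), GPI (-0.24), ENO1 (-0.24) and PGAM1 (-0.24) lower. None of the 3 calls held under all 11 alternatives. Leaving out 1 library, the LDHA call was kept only without control guide replicate 1, that of SLC2A1 only without control guide replicate 2 or guide 1 replicate 1, and that of EGLN1 only without guide 1 replicate 1 or guide 2 replicate 1. For LDHA the value fell to -0.16 (adjusted p = 0.27, edgeR) without control guide replicate 2. With the replicate number as a block, 4 members rose and 4 fell, against 17.8% of all genes. Genes beyond the set were taken from the fit of all guide libraries without a block, where 10.3% of all genes were called. TXNIP rose from 206.9 to 332.3 CPM in the mean (0.68, SE 0.081, adjusted p = 0.0003, edgeR). ARRDC4 was at 0.62, MLXIP at 0.27, PC at -0.77, PFKFB2 at 0.49, SLC16A1 at -0.35, ARNT at 0.27 and SIAH2 at -0.36. These genes were picked from several lists and do not stand for whole lists. Of 28 further HIF targets 0 was called (2 had an unadjusted p below 0.05, and DESeq2 called 1). Summed myeloid markers were 1040 to 1270 CPM with the control guide, 2240 to 2450 with guide 1 and 2100 to 2210 with guide 2.

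In cells from mice, no member was called for MS41 against vehicle in a fit with replicate number as a block, against 0.0328% of all 21337 genes. An unadjusted p below 0.05 was reached by 3 of 33 members, and DESeq2 called 0. The values of this table follow replicate number in a way that points to an adjustment before deposit: same-numbered vehicle and MS41 libraries deviate from their group means in opposite directions. SLC2A1 was at 33.1, 33.3 and 33.5 CPM with vehicle and 27.7, 27.4 and 27.4 with MS41 (log2 fold change -0.28, interval -0.43 to -0.12, adjusted p = 0.41, edgeR). BNIP3L was at 47.3, 47.0 and 47.2 and at 53.3, 53.4 and 53.5 CPM (0.18, interval 0.05 to 0.32, adjusted p = 0.58, edgeR). Both genes had groups apart, as 30% of all genes did, and both genes were called without the block (adjusted p = 0.031 and 0.033, edgeR), where 2.45% of all genes were. P4HA1 was at 46.8, 46.8 and 49.0 and at 53.3, 53.0 and 50.9 CPM (0.14), VEGFA at 31.5, 32.1 and 30.2 and at 28.1, 27.4 and 29.3 (-0.15), SLC2A3 at 5.19, 5.60 and 5.26 and at 4.68, 4.31 and 4.61 (-0.24), and EPAS1 at 1.01, 0.803 and 1.03 and at 1.202, 1.47 and 1.18 (0.44). LDHA was at -0.04 with an interval from -0.16 to 0.08, where its culture value at 24 h was -0.73. The difference between these tables was not tested, and dose and time in mice are not given. Of the 31 members above 1 CPM, 26 had intervals within 0.5 of zero. Of the 29 further HIF targets tested, 0 was called (3 with an unadjusted p below 0.05, and DESeq2 called 0).

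**Figure D4:**
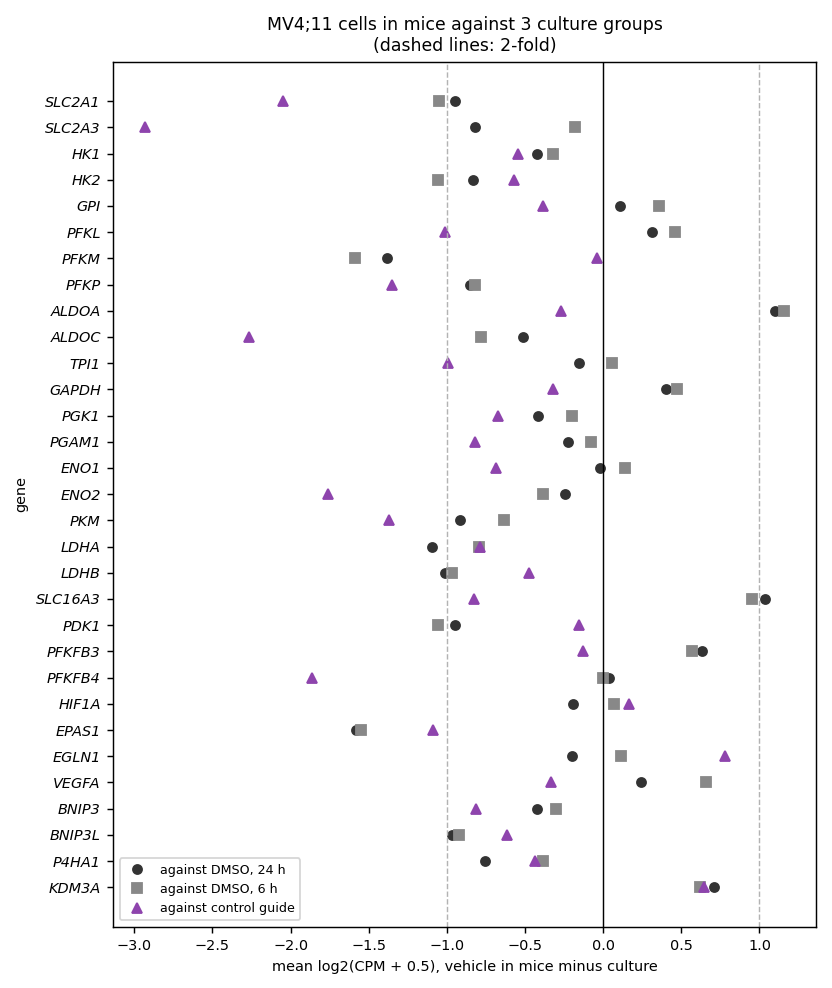
Difference in log2(CPM + 0.5) between MV4;11 cells from vehicle mice and each of 3 culture groups (DMSO at 24 h, DMSO at 6 h, control guide), for the 31 members above 1 CPM, with lines at 2-fold. EPAS1 lies below the lower line against all 3 groups, KDM3A lies to the right of 0 against all 3, and ALDOA, SLC16A3 and VEGFA change sides with the culture group.

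Whether cells in mice resemble cultured cells was described over tables that differ in library kit (a low-input SMART-Seq kit for mice, a standard Illumina protocol for culture) and in that adjustment, so kit, adjustment and setting cannot be told apart and no test is given. On a joint TMM scale, differences are in log2(CPM + 0.5), which understates the change of low genes. Vehicle cells from mice against DMSO at 24 h gave 2 members higher by over 2-fold without overlap, ALDOA (1.10) and SLC16A3 (1.04), and 4 lower, EPAS1 (-1.58), PFKM (-1.39), LDHA (-1.10) and LDHB (-1.01), of 31 members above 1 CPM, against 24.2% of all genes (11.2% higher and 13% lower). The median difference was -0.41 for the members and -0.09 for all genes. LDHA was at 786 to 799 CPM in its own table in mice and at 1482 to 1524 CPM in culture. Scaling by total counts alone moved the median of all genes to 0.10 and gave 2 members higher and 2 lower.

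Much of this depended on the culture group. Against DMSO at 6 h, 1 member was higher and 5 lower (24.4% of all genes, 11% higher and 13.3% lower). Against the control guide, 0 were higher and 9 lower (28.1%, 9.96% higher and 18.1% lower). SLC2A3 (-2.93), ALDOC (-2.26), SLC2A1 (-2.05), PFKFB4 (-1.86) and ENO2 (-1.76) led. The culture tables also differed from each other. The control guide against DMSO at 24 h had 8 members higher and 1 lower, against 27.6% of all genes (19.4% higher and 8.22% lower). SLC2A3 (2.11), PFKFB4 (1.90), SLC16A3 (1.86) and ALDOC (1.75) were among those higher. EPAS1 was at least 2-fold lower in mice against all 3 culture groups (-1.58 to -1.09). KDM3A was higher in mice without overlap against all 3 (0.62 to 0.71). A further 15 members were lower in mice than all 3 without overlap, so 16 of 31 with EPAS1, among them SLC2A1 (-2.05 to -0.95), LDHA (-1.10 to -0.79), HK2 (-1.06 to -0.57), BNIP3L (-0.97 to -0.62) and P4HA1 (-0.75 to -0.39). Of all 14385 genes above 1 CPM in at least 1 of these comparisons, 32.6% were lower without overlap against all 3, 16.7% higher, and 5.01% lower by over 2-fold. The other 14 changed side or overlapped with the culture group: HIF1A ran from -0.19 to 0.16, EGLN1 from -0.20 to 0.78 and VEGFA from -0.33 to 0.66. Myeloid markers summed to 7180 to 8460 CPM in vehicle cells, above every culture group, and their part here was not tested.

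The lines were also compared, again across tables and with no test. With DMSO, 8 of 32 members were over 2-fold higher without overlap in SEMK2 than in MV4;11 at 24 h and 3 lower. Among all genes the share was 31.4% (16.7% higher and 14.8% lower). PFKM (3.08), SLC2A3 (2.45), PFKFB3 (2.39), PKM (1.63), HIF1A (1.61) and ALDOC (1.48) were higher, and SLC16A3 (-3.09), VEGFA (-3.05) and GPI (-1.07) lower. HIF1A stood at 181.2 to 193.9 CPM in SEMK2 and 54.3 to 58.8 CPM in MV4;11 in their own tables, VEGFA at 2.36 to 2.71 and 22.1 to 24.3 CPM.

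Counting limits touch a few of these genes. The strand setting is not stated, and SENP1, which overlaps PFKM on the opposite strand, held from 160% to 2736% as many counts as PFKM depending on the table, and CSNK1D from 85.8% to 2539% as many as SLC16A3. ALDOA shares 1636 exon bases on the same strand with AC093512.2, so reads that fit both may not have been counted, and its level is uncertain. TPI1 has 4 pseudogenes that drew 3.53% to 9.90% as many counts as the gene itself.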

How the data were processed

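RNA from 42 libraries in 15 groups was analysed. CASAVA 1.8, HISAT2 2.1.0, HTSeq 0.11.3 and hg38 are listed in the submitters' processing notes; settings are not given in the sources used here. The authors deposited raw counts per gene for both lines in culture with compounds and for the guides. The deposited values from mice were treated like estimated counts (expected counts), since they seem adjusted by replicate number before deposit, a step the labels do not describe: the SD of paired means over numbers had a median of 0.00132 over 14669 genes, against 0.0394 to 0.0638 for other matchings, and deviations of same-numbered libraries correlated at -0.993, -0.969 and -0.982. No column was left unmapped (0). All 58721 identifiers are in GENCODE release 29.

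Each table was fitted in edgeR 4.0.16 (filterByExpr, TMM, robust quasi-likelihood), with the 24 compound libraries in 1 fit, the mean of both ENL guides as the knockout, and the replicate number as a block for mice only. The biological coefficient of variation was 4.77%, 11%, 9.21% and 13% for the compound, SEMK2, guide and mouse tables, with 16, 4, 3 and 2 residual degrees of freedom. The fits were tested on simulated data. Culture and mice were compared in log2(CPM + 0.5) with joint TMM factors, mean of at least 1 CPM in a group, a 2-fold limit and no overlap. Alternatives were DESeq2 1.42.0, RLE factors, no filter, removal of a GC trend, the block, leaving out each library, a pseudocount of 0.1, total-count scaling and other culture groups. R 4.3.3, Python 3.11.15, pandas 2.3.3 and matplotlib 3.10.9 were used.

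The members, gene lists and tests were chosen with earlier results of these data known. Named in full were the 6 largest non-overlapping calls of each comparison, the HIF subunits, hydroxylases and listed targets, and the 3 largest calls of each pathway list, of which some are not reported here. Members below 1 CPM in every group have their level only.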

Additional observations from a re-analysis of the deposited data

Results flagged for a closer look

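The MS41 effect differed between 6 h and 24 h for 22 of 33 members by a test of the difference in edgeR. The largest differences of log2 fold change were -0.69 for ALDOC, 0.58 for PFKFB3, 0.52 for PFKFB4, -0.49 for PFKM, 0.48 for BNIP3L and -0.48 for LDHA. For PFKFB3 (0.58) and EGLN1 (0.35) every MS41 library lay below every DMSO library at 6 h and above at 24 h. Groups were apart for 37.4% of all genes at 6 h and 50.2% at 24 h. PFKFB3 was not called at 6 h, where its groups were only just apart, so a fall at that time is not shown. The EGLN1 call at 6 h was lost without DMSO replicate 3.

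Between tables, some members had groups that were apart in opposite directions, and these differences were not tested. Groups were apart for 18.2% of all genes in SEMK2 and 30% in mice. Of the members named here, only EGLN1 was called in SEMK2, and none was called in mice. SLC2A3 was higher with MS41 in MV4;11 culture and lower in SEMK2 and in mice. The effect in SEMK2 minus that in MV4;11 was -0.96 against the 6 h effect and -1.22 against the 24 h effect, and the effect in mice minus that in culture was -1.07 and -1.34. PFKFB3 (-0.65) and EGLN1 (-0.48) were higher with MS41 at 24 h in MV4;11 and lower in SEMK2. P4HA1 was lower at 24 h in culture and higher in mice, a difference of 0.35. SEMK2 time and the dose and time in mice are not in the labels.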

How the results depend on the processing

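Counts of members called with MS41 against DMSO, MS41N or PFI-6 in MV4;11 culture, for the change of its effect and for DMSO over time stayed within 1.5 times of the reported count under every alternative run. With MS41N at 24 h, 1 member was called without the filter on low counts. With PFI-6 at 6 h DESeq2 called 2, removal of the GC trend left 0, and leaving out each library gave 0 to 1. With PFI-6 at 24 h, removal of the GC trend left 6, and leaving out each library gave 10 to 15. SEMK2 gave 0 to 14 when each library was left out, with 14 without DMSO replicate 3. For both ENL guides, DESeq2 called 8, no filter 7, the replicate block 8, and leaving out each library 0 to 8. For guide 1 the values were 5, 7, 8 and 0 to 6, and for guide 2 they were 3, 3, 3 and 0 to 6, where a lone remaining library was assumed to vary like the other groups. In mice, the fit without the replicate block called 2. PFKL with PFI-6 at 24 h turned from -0.18 to 0.0134 with the GC trend removed. Over the other named values, 1847 alternatives kept call and direction, 69 lost the call and 29 gained one. Deviations of same-numbered libraries correlated above 0.1 for all 3 pairs in no comparison with 3 libraries a group (-0.096, 0.412 and 0.337 in SEMK2, and 0.09, 0.111 and 0.209 for MS41 against DMSO at 24 h), and the block changed no count of members outside the guides and mice by over 1.5 times. Guide 1 and the control guide correlated at 0.671, guide 2 at 0.006. The count for mice against culture was 5 to 7 with each library left out, and 6 against DMSO at 6 h. Depth limits CA9, MXRA5, EGLN3 and ADM most.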
